A study of Mus musculus with 8 samples.

Results

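The 44 genes described here encode the digestive enzymes of the lysosome, their cofactors and the proteins of its membrane. They were taken by symbol from the 22880 gene identifiers of the count files, and all 44 were found. They fall by role into cathepsins with legumain (12 genes), glycosidases (11), sulfatases with sulfamidase (5), lipid hydrolases with their activators and a sterol carrier (6), acid phosphatases with Tpp1 (3) and membrane proteins (7). The counts come from whole soleus, a slow muscle of the lower hind limb, of male C57BL/6 mice aged 2 months, with 4 mice per genotype. Control mice carried both wild-type alleles of Dnm2, the gene of the membrane-remodelling GTPase dynamin 2 (Dnm2 +/+). Dnm2 wt/K562E mice carried 1 wild-type allele and 1 allele with the K562E point mutation, placed in the endogenous gene, so every cell type of the muscle carried it, together with a loxP site left in an intron. The description of Dnm2 wt/K562E mouse 1 spells the allele K452E, whereas its title and genotype label spell it K562E.

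A lysosome is an acidic vesicle in which proteins, glycans, lipids and nucleic acids delivered by endocytosis, phagocytosis or autophagy are broken down. A proton pump (V-ATPase) acidifies it, most of its hydrolases are tagged with mannose 6-phosphate and sorted by receptors, and its membrane holds transporters, channels and heavily glycosylated proteins such as Lamp1. In skeletal muscle the compartment is known for the clearance of glycogen and of damaged organelles, and for storage myopathies when Gaa or Lamp2 is lost, while macrophages are among the cells richest in lysosomes. Many lysosomal genes carry a short promoter element, the CLEAR element, bound by the transcription factors Tfeb, Tfe3 and Mitf.

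Library depth ran from 33407430 to 48832814 counts per mouse. Single lysosomal genes received from 77 counts (Gla in control 2) to 33812 counts (Ctsd in Dnm2 wt/K562E mouse 1). Levels are given as normalized CPM, which are counts scaled to a common total after the TMM scaling of edgeR, for mice 1 to 4 in the order of the sample titles. A difference is a log2 fold change, Dnm2 wt/K562E over control, from the quasi-likelihood fit of edgeR over 14001 genes that passed a filter on low counts. A gene was called higher or lower at an adjusted p (Benjamini-Hochberg, over all 14001 genes) under 0.05, written below as edgeR adjusted p. Replicates are different mice. In bulk tissue, fewer cells of a type and less RNA per cell cannot be told apart. The point mutation itself cannot be checked in counts per gene. Dnm2 stood at 68.8, 68.5, 59.2 and 68.7 CPM in controls and 74.2, 76.1, 73.2 and 70.3 CPM in Dnm2 wt/K562E mice, a log2 fold change of 0.15 (edgeR adjusted p = 0.0909).

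Some libraries were often the highest or the lowest of their genotype across the 44 genes. Control 4 had the highest level of its genotype in 21 of the 44 lysosomal genes, whereas over all tested genes it was highest in 25.5%. Dnm2 wt/K562E mouse 1 was the highest of its genotype in 33 of the 44, against 26.7% of all tested genes, and mouse 4 was the lowest of the mutants in 21 of the 44, against 26.3%. Control 4 and Dnm2 wt/K562E mouse 1 were also the highest of their genotypes in the summed markers of macrophages, leukocytes, fibroblasts and tendon. The macrophage sums were 283, 294, 312 and 472 CPM in controls 1 to 4 and 864, 740.0, 687 and 536 CPM in Dnm2 wt/K562E mice 1 to 4. With these 2 mice left out, 24 of the 44 genes were called higher and 2 lower, beside 18.5% of all tested genes called higher in that fit.

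Of the 44 lysosomal genes, 25 were called higher and 2 lower in soleus of the mutant mice, while 17 were not called. Over all tested genes, 22.2% were called higher and 21.7% lower. The genes that rose most were the cysteine proteases Ctss and Ctsk, the leukocyte-enriched membrane protein Laptm5, beta-galactosidase (Glb1), the GM2 ganglioside activator Gm2a, the sulfatase Arsb and sulfamidase (Sgsh). Psap, the precursor of the saposins, and the protease Ctso fell. With the study's second threshold added, a log2 fold change of 0.58 or more in size, 13 of the 44 genes were higher and 0 were lower (0 also at an unadjusted p under 0.05 with this fold change, by the exact test of edgeR and by DESeq2). Over all tested genes these shares were 12.9% and 7.85%. The median log2 fold change of the 44 genes was 0.35, that of all tested genes 0.0074. In 24 of the 44 genes all 4 Dnm2 wt/K562E mice lay above all 4 controls, and in 2 all 4 lay below. Over all tested genes this held for 20.6% and 20.5%.

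Counts of called genes by role ran from 5 of 6 higher among the lipid-handling genes and 4 of 5 among the sulfatases to 0 of 3 among the acid phosphatases with Tpp1 and 2 of 7 among the membrane proteins. The median log2 fold change was 0.56 for sulfatases, 0.54 for lipid-handling genes, 0.43 for cathepsins with legumain and 0.37 for glycosidases. It was 0.085 for membrane proteins and -0.011 for the acid phosphatases with Tpp1, or with library size alone 0.19, which is -0.025 relative to the median of all genes on that scale. Beside the counts by role, 22.2% of all tested genes were called higher and 21.7% lower. No test was made between roles.

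**Figure D1:**
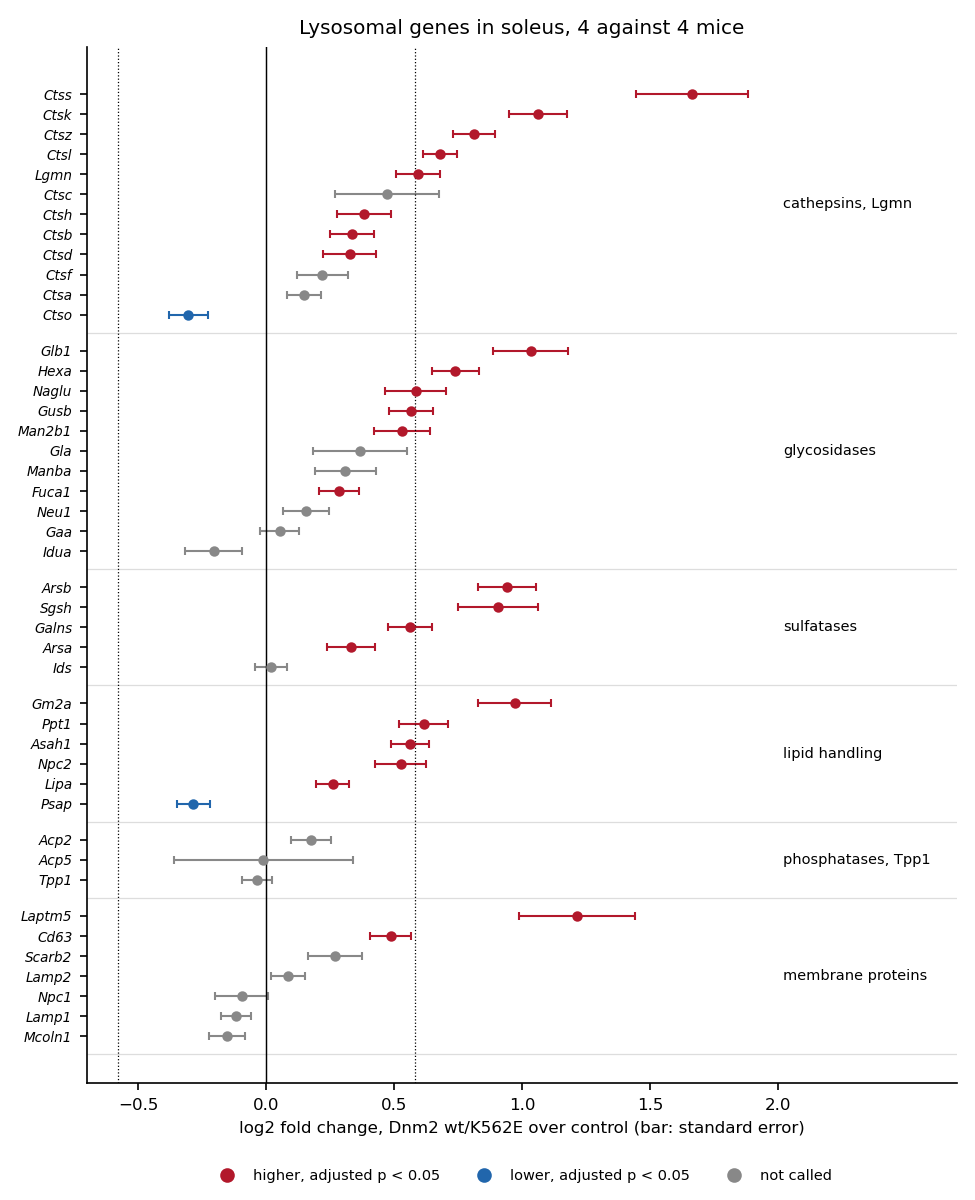
Log2 fold change of each of the 44 lysosomal genes (points) with its standard error (bars), Dnm2 wt/K562E over control, 4 mice per genotype, grouped by role. Dotted lines mark a log2 fold change of 0.58 in either direction, and colour marks genes called higher (25), called lower (2) or not called (17). Most enzymes lie right of 0, and only Laptm5 among the membrane proteins passes the right dotted line.

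The scaling between libraries bears on all of these counts. The TMM factors lay between 0.91 and 0.96 for the controls and between 1.04 and 1.10 for the mutants, so the scaling lowers the mutant levels relative to the controls. With library size alone, the 14001 genes had a median log2 fold change of 0.22 and that of the 44 genes 0.56, which is 0.34 above the median of all genes. On that scale 37 of the 44 genes were called higher, beside 40.05% of all tested genes. None was called lower, beside 1504 of the 14001 tested genes.

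Taken as sums, the 44 genes held 0.325, 0.333, 0.327 and 0.358 percent of all counts in controls 1 to 4 and 0.516, 0.446, 0.419 and 0.426 percent in Dnm2 wt/K562E mice 1 to 4. Every Dnm2 wt/K562E mouse was above every control. In normalized CPM the sums were 3523, 3615, 3578 and 3731 in controls and 4685, 4040, 3946 and 4108 in Dnm2 wt/K562E mice, which is 1.16 times the control mean. Ctsd alone made up 17.7% of that sum and Psap and Lamp1 were next in level, so the sum weighs a few abundant genes.

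Cathepsins are the proteases of the lysosome, most of them cysteine proteases, and legumain cleaves after asparagine and activates several of them. Of these 12 genes, 8 were called higher (Ctss, Ctsk, Ctsz, Ctsl, Lgmn, Ctsh, Ctsb and Ctsd), 1 was called lower (Ctso), and Ctsa, Ctsc and Ctsf were not called. Beside this, 22.2% of all tested genes were called higher and 21.7% lower. Ctsl, a broad endopeptidase (chromosome 13, 64359337 to 64370890, GRCm38), had the smallest p of the group, with 143, 135, 139 and 139 CPM in controls and 247, 219, 203 and 222 CPM in Dnm2 wt/K562E mice. The genotypes did not overlap, and the controls differed from each other by less than the gap between the genotypes. Its log2 fold change was 0.68 (standard error 0.066, edgeR adjusted p = 1.81e-05). Ctsz, a carboxypeptidase, was measured at 37.6, 37.4, 39.8 and 45.8 CPM in controls and 78.0, 68.5, 66.5 and 69.0 CPM in Dnm2 wt/K562E mice. Again the genotypes were separate, and Ctsz rose by 0.81 on the log2 scale (standard error 0.082, edgeR adjusted p = 2.32e-05).

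Ctss and Ctsk, singled out after their values were seen, had the largest log2 fold changes among the cathepsins. They are neighbours on chromosome 3 (Ctsk at 95499256 to 95509362, Ctss at 95526786 to 95556403, GRCm38). Ctss, which trims the invariant chain for antigen presentation, was at 12.1, 8.17, 8.56 and 17.1 CPM in controls and 46.1, 33.2, 33.5 and 32.4 CPM in Dnm2 wt/K562E mice. Control 4 was the highest control and Dnm2 wt/K562E mouse 1 stood above the other 3 mutants, yet the lowest mutant lay above the highest control. Ctss rose by 1.66 on the log2 scale (standard error 0.22, edgeR adjusted p = 0.000142). Ctsk, the collagen-degrading protease best known from osteoclasts, was at 20.6, 15.4, 15.2 and 20.9 CPM in controls and 39.8, 39.0, 36.1 and 35.5 CPM in Dnm2 wt/K562E mice, a log2 fold change of 1.06 (standard error 0.11, edgeR adjusted p = 3.34e-05). Of 5 osteoclast markers, 3 passed the filter. Calcr, which also marks satellite cells, was called lower (log2 fold change -3.47), Oscar and Nfatc1 were not called, and Ocstamp and Dcstamp were not tested.

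Ctsd, the aspartic protease of the lysosome, had the highest level per kb of exon of all 44 genes in both genotypes. Its normalized CPM was 558, 642, 643 and 614 in controls and 918, 690.0, 661 and 811 in Dnm2 wt/K562E mice. Mice 2 and 3 of the mutants lay just above the highest controls, while mice 1 and 4 were clearly higher. The log2 fold change of 0.33 (standard error 0.10) passed the threshold with an edgeR adjusted p of 0.0235. The call was lost without control 1 (adjusted p = 0.0554), without Dnm2 wt/K562E mouse 1 (0.0607), without Dnm2 wt/K562E mouse 4 (0.0586) and with control 4 and Dnm2 wt/K562E mouse 1 both left out (0.102). It was also lost with the mouse number of the titles as a replicate block (0.0684). Ctsf, a cysteine protease known from muscle among other tissues, had the largest p of the group, with 29.0, 22.4, 23.1 and 20.6 CPM in controls and 29.4, 27.7, 26.1 and 27.5 CPM in Dnm2 wt/K562E mice. Control 1 lay within the range of the mutants, and the log2 fold change of 0.22 was not called (edgeR adjusted p = 0.0979). Without control 1, Ctsf was called higher at 0.32 (edgeR adjusted p = 0.00526).

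The other cathepsins filled the range between. Lgmn rose with a log2 fold change of 0.59, Ctsh, an aminopeptidase, with 0.38, and Ctsb, the second most abundant cathepsin per kb, with 0.34. In Ctsh the genotypes overlapped. Ctso fell from a mean of 15.9 to 12.9 CPM, a log2 fold change of -0.30 (edgeR adjusted p = 0.00795). Ctsc, which activates the serine proteases of immune cell granules, had a log2 fold change of 0.47 with a wide standard error of 0.20 and was not called (edgeR adjusted p = 0.082). DESeq2 called it on all 8 mice (adjusted p = 0.0461), as did edgeR with library size alone (adjusted p = 0.0255). It was also called without control 4, at 0.64 (edgeR adjusted p = 0.0196), and without Dnm2 wt/K562E mouse 4, at 0.64 (edgeR adjusted p = 0.0114). Ctsa, a carboxypeptidase that also shields Neu1 and Glb1, was not called either (log2 fold change 0.15, edgeR adjusted p = 0.0939).

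**Figure D2:**
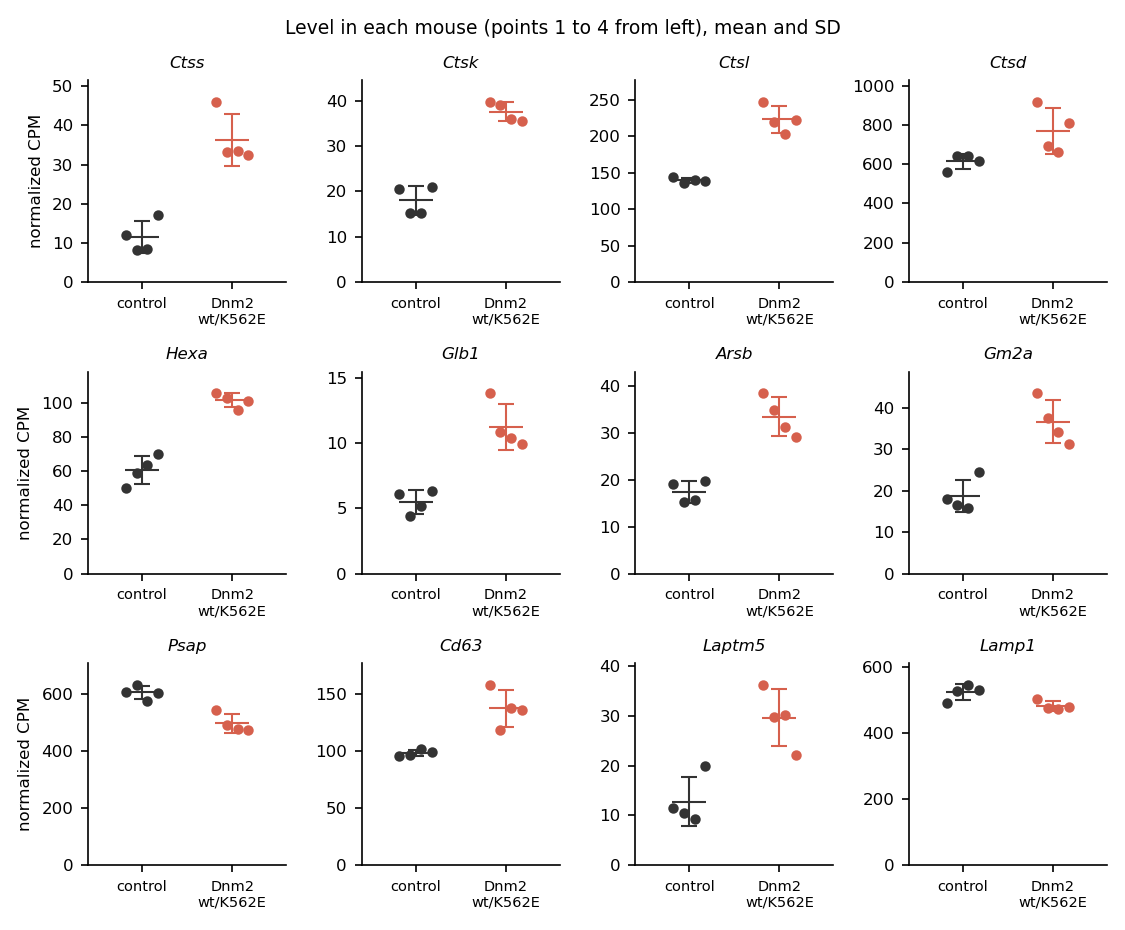
Normalized CPM (vertical axes, starting at 0) of 12 lysosomal genes in each mouse. Points from left are mice 1 to 4 of each genotype, and the horizontal mark with its bar is the mean with the SD over 4 mice. The genotypes are separate in every panel but that of Lamp1, and Psap is the panel in which all 4 Dnm2 wt/K562E mice lie below the controls.

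Glycosidases remove sugars from glycoproteins, glycolipids, glycosaminoglycans and glycogen, and most are exoglycosidases. Of these 11 genes, 6 were called higher (Hexa, Glb1, Gusb, Naglu, Man2b1 and Fuca1), and Gla, Manba, Neu1, Gaa and Idua were not called. Beside this, 22.2% of all tested genes were called higher. Hexa, the alpha subunit of beta-hexosaminidase and the most abundant glycosidase per kb, stood at 50.02, 59.1, 63.6 and 70.0 CPM in controls and 106, 103, 95.9 and 101 CPM in Dnm2 wt/K562E mice. All 4 mutants lay above all controls, of which control 4 was the highest. Hexa rose by 0.74 on the log2 scale (standard error 0.093, edgeR adjusted p = 0.000103). Glb1, the beta-galactosidase whose activity is stained in senescent cells, was far less abundant, with 6.08, 4.395, 5.17 and 6.36 CPM in controls and 13.8, 10.8, 10.4 and 9.97 CPM in Dnm2 wt/K562E mice. The mutant mean was 2.05 times the control mean, again without overlap (log2 fold change 1.04, standard error 0.15, edgeR adjusted p = 0.00023).

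Gaa, the acid alpha-glucosidase that digests glycogen and is deficient in Pompe disease, had the largest p of the glycosidases. It was measured at 119.5, 129.9, 137 and 145 CPM in controls and 147, 131, 127 and 146 CPM in Dnm2 wt/K562E mice, and the genotypes overlapped almost fully. The log2 fold change was 0.053 (standard error 0.076, edgeR adjusted p = 0.601). Among the others, Naglu, which acts on heparan sulfate, had a log2 fold change of 0.58, beta-glucuronidase (Gusb) of 0.56, the alpha-mannosidase Man2b1 of 0.53 and the fucosidase Fuca1 of 0.29. The values of the genes not called were 0.37 for the alpha-galactosidase Gla, 0.31 for the beta-mannosidase Manba (edgeR adjusted p = 0.0524), 0.16 for the sialidase Neu1 and -0.21 for the iduronidase Idua. Gla was the least abundant of the 44 genes per kb, with 77 to 171 counts per mouse, and its standard error was 0.18.

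Sulfatases take sulfate groups off glycosaminoglycans and sulfatide before the sugars can be removed. Arsb, which acts on dermatan sulfate, stood at 19.1, 15.2, 15.7 and 19.7 CPM in controls and 38.4, 34.9, 31.2 and 29.1 CPM in Dnm2 wt/K562E mice, without overlap. Arsb rose by 0.94 on the log2 scale (standard error 0.11, edgeR adjusted p = 7.84e-05). Galns, which acts on keratan and chondroitin sulfate, was at 8.37, 7.75, 8.96 and 8.66 CPM in controls and 12.03, 12.3, 13.3 and 12.2 CPM in Dnm2 wt/K562E mice. The spread within either genotype was small beside the gap, with a log2 fold change of 0.56 (edgeR adjusted p = 0.000395). Ids, the iduronate sulfatase that is the most abundant of these genes per kb, had 38.2, 37.5, 36.3 and 38.1 CPM in controls and 38.2, 40.7, 37.97 and 35.1 CPM in Dnm2 wt/K562E mice. It was not called, with a log2 fold change of 0.018 (edgeR adjusted p = 0.839). Sgsh, the heparan sulfamidase, rose by a log2 fold change of 0.91 (edgeR adjusted p = 0.000874), and Arsa, the sulfatide sulfatase, by 0.33 (edgeR adjusted p = 0.0152). Among the enzymes of heparan sulfate breakdown in these 44 genes, Sgsh, Naglu and Gusb were called higher, while Ids and Idua were not called.

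The lipid-handling genes moved in both directions. Asah1, the acid ceramidase, stood at 37.1, 37.5, 40.9 and 40.04 CPM in controls and 65.3, 55.8, 54.6 and 54.2 CPM in Dnm2 wt/K562E mice, with mouse 1 above the other 3 mutants and no overlap. Its log2 fold change was 0.56 (standard error 0.075, edgeR adjusted p = 0.000152). Gm2a, the cofactor that lifts GM2 ganglioside out of the membrane for beta-hexosaminidase, was at 17.9, 16.6, 15.8 and 24.4 CPM in controls and 43.5, 37.5, 34.2 and 31.4 CPM in Dnm2 wt/K562E mice. Control 4 was the highest control and still lay below every mutant, and the log2 fold change was 0.97 (standard error 0.14, edgeR adjusted p = 0.000293). Lipa, the acid lipase of cholesteryl esters and triglycerides, had the largest p of the group and was called all the same, with 25.3, 24.7, 28.5 and 27.1 CPM in controls, 31.6, 30.7, 31.8 and 32.6 CPM in Dnm2 wt/K562E mice and a log2 fold change of 0.26 (edgeR adjusted p = 0.00818). Ppt1, which removes palmitate from proteins, rose by 0.62 and the sterol carrier Npc2 by 0.53 on the log2 scale.

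Psap was the exception among them. It encodes the precursor of saposins A to D, cofactors of sphingolipid breakdown, and was the most abundant lipid-handling gene per kb. Its level was 606, 631, 575 and 603 CPM in controls and 544, 490.2, 476 and 473 CPM in Dnm2 wt/K562E mice. All 4 mutants lay below all controls, and mouse 1 was the highest of them. The log2 fold change was -0.28 (standard error 0.064, edgeR adjusted p = 0.00436). With library size alone the value was -0.071 and the call was lost (edgeR adjusted p = 0.427), and the same held for Ctso, at -0.09 (edgeR adjusted p = 0.368). Relative to the median of all genes on that scale, 0.22, Psap was at -0.29 and Ctso at -0.31. Since Psap made up 74% of the summed CPM of the 6 lipid-handling genes, their sum was 0.96 times the control mean although 5 of the 6 genes were called higher.

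Of the acid phosphatases and Tpp1, 0 of 3 were called by edgeR, by its exact test or by DESeq2, and 1 of 3 (Acp2) had an unadjusted p under 0.05. In the main edgeR fit, 22.2% of all tested genes were called higher and 21.7% lower. Acp2, the lysosomal acid phosphatase of most tissues, was at 34.1, 30.1, 34.2 and 33.3 CPM in controls and 40.0, 38.8, 37.5 and 32.6 CPM in Dnm2 wt/K562E mice. Mouse 4 of the mutants lay among the controls, and the log2 fold change was 0.18 (edgeR adjusted p = 0.0912). Without that mouse, Acp2 was called higher at 0.23 (edgeR adjusted p = 0.0248). Tpp1, the tripeptidyl peptidase lost in a neuronal ceroid lipofuscinosis and the most abundant of the 3 per kb, was at 64.9, 62.6, 62.7 and 64.6 CPM in controls and 67.4, 60.7, 59.0 and 61.5 CPM in Dnm2 wt/K562E mice, a log2 fold change of -0.036 (standard error 0.060, edgeR adjusted p = 0.657). Acp5, the tartrate-resistant phosphatase of osteoclasts and some macrophages, varied widely within the controls, with 5.78, 9.89, 2.58 and 10.01 CPM, and was at 8.01, 7.14, 4.82 and 7.94 CPM in Dnm2 wt/K562E mice. For Acp5 the log2 fold change was -0.011 with a standard error of 0.35, the largest of the 44 genes, so a change of moderate size in either direction was not detectable.

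Of the 7 membrane proteins, 2 were called higher and 5 were not called, beside 22.2% of all tested genes called higher. Lamp1, a structural glycoprotein and the most abundant of them per kb, stood at 491, 528, 548 and 532 CPM in controls and 505, 476, 474 and 480.1 CPM in Dnm2 wt/K562E mice. The genotypes overlapped through control 1 and Dnm2 wt/K562E mouse 1, and the log2 fold change was -0.12 (standard error 0.057, edgeR adjusted p = 0.12). Lamp2, needed for autophagosome clearance in muscle, had a log2 fold change of 0.085 (edgeR adjusted p = 0.312). Npc1, which exports cholesterol and had the largest p of the group, was at 44.8, 38.3, 32.0 and 33.9 CPM in controls and 38.1, 34.2, 31.9 and 35.4 CPM in Dnm2 wt/K562E mice. Npc1 had a log2 fold change of -0.095 and was not called (edgeR adjusted p = 0.49). Scarb2, the sorting receptor of glucocerebrosidase, had 0.27 (edgeR adjusted p = 0.0608) and the calcium channel Mcoln1 -0.15 (edgeR adjusted p = 0.0973) on the log2 scale. Without control 1, which was far above the other controls, Scarb2 was called higher at 0.38 (edgeR adjusted p = 0.00185).

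Cd63 and Laptm5 were the exceptions. Cd63, a tetraspanin of late endosomes, lysosomes and exosomes, stood at 95.6, 97.0, 102 and 99.1 CPM in controls and 159, 119, 138 and 137 CPM in Dnm2 wt/K562E mice. The controls lay close together and below every mutant, and the log2 fold change was 0.49 (standard error 0.081, edgeR adjusted p = 0.000676). Laptm5, a transmembrane protein found mainly in blood cells and their tissue descendants, was at 11.5, 10.4, 9.25 and 19.9 CPM in controls and 36.3, 29.8, 30.2 and 22.2 CPM in Dnm2 wt/K562E mice. Control 4 and Dnm2 wt/K562E mouse 4 came close to each other without overlap. The log2 fold change was 1.216 (standard error 0.23, edgeR adjusted p = 0.00141). The median of the 7 membrane proteins was 0.01 with control 4 and Dnm2 wt/K562E mouse 1 both left out and 0.30 with library size alone, 0.08 above the median of all genes on that scale.

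Levels between genes can be compared only per length, here as normalized CPM per kb of exon. In controls the order began with Ctsd (261 CPM per kb), Psap (220.0), Lamp1 (196), Ctsb (56.1) and Hexa (30.4), and the ranges of these neighbours did not overlap. It ended with Manba (1.48 CPM per kb) and Gla (0.883). Of the 43 neighbouring pairs in this order, 33 overlapped between mice. In Dnm2 wt/K562E mice Ctsd led with 328 CPM per kb, followed by Lamp1 (181) and Psap (181), which overlapped with each other, and then by Ctsb (70.8) and Hexa (50.8). Here 35 of the 43 neighbouring pairs overlapped. Ctss moved from rank 17 in controls to rank 11 in Dnm2 wt/K562E mice, and Laptm5 from 33 to 22.

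**Figure D3:**
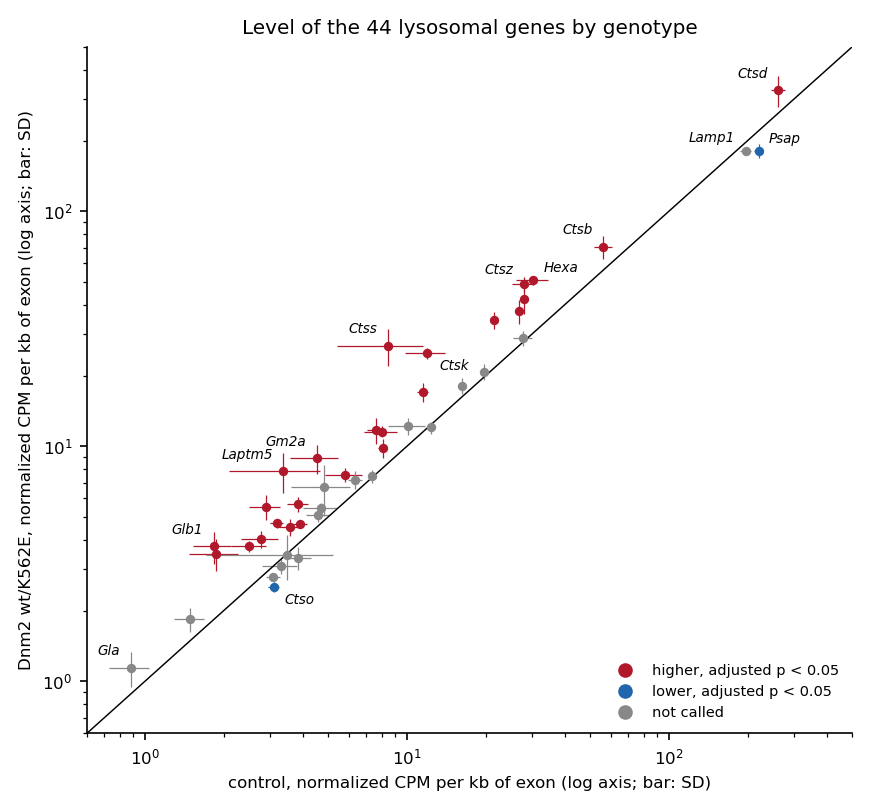
Mean level of the 44 lysosomal genes in Dnm2 wt/K562E mice (vertical) against controls (horizontal), in normalized CPM per kb of exon on log axes. Bars are the SD over 4 mice and the line marks equal levels. Ctsd, Psap and Lamp1 lie well above all other genes in both genotypes, and Ctss, Laptm5, Glb1 and Gm2a lie among the farthest above the line.

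The lysosomal genes beyond these 44 were described from further lists. Of 18 other hydrolases, 16 were tested (Ctse and Ctsw were not), 10 were called higher and 1 lower, with a median log2 fold change of 0.39. The shares over all tested genes were 22.2% higher and 21.7% lower. The smallest p belonged to Dnase2a, the acid DNase that digests engulfed DNA, which rose from 7.33, 6.36, 5.44 and 6.21 CPM in controls to 14.2, 18.8, 18.1 and 14.4 CPM in Dnm2 wt/K562E mice. The genotypes were far apart, with a log2 fold change of 1.37 (edgeR adjusted p = 1.45e-05). Smpd1, the acid sphingomyelinase and the most abundant of this list per kb, fell from 75.3, 74.9, 78.4 and 74.1 CPM to 60.9, 58.0, 55.7 and 56.8 CPM, a log2 fold change of -0.39 (edgeR adjusted p = 0.000235). Smpd1 and Psap, both of the sphingolipid pathway, were thus lower, whereas the ceramidase Asah1 was higher.

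Of 16 other lysosomal membrane proteins, 3 were called higher and 2 lower, with a median of 0.10. The transporter Mfsd8 had a log2 fold change of -0.67 (edgeR adjusted p = 0.00091) and the amino acid transporter Slc36a1 one of 0.50 (edgeR adjusted p = 0.00133). The most abundant per kb, Laptm4a, a relative of Laptm5, had 276, 284, 293 and 292 CPM in controls and 299.7, 287, 284 and 296 CPM in Dnm2 wt/K562E mice, and its log2 fold change was 0.028 (edgeR adjusted p = 0.689). Of 17 tested V-ATPase genes (Atp6v0d2 was not tested), 4 were called higher and 3 lower, with a median of 0.087. Atp6v0e had a log2 fold change of 0.43 (edgeR adjusted p = 0.000323), Atp6v1d one of 0.49 (edgeR adjusted p = 0.00053), and the most abundant subunit per kb, Atp6v1g1, one of 0.020 (edgeR adjusted p = 0.834). The shares called higher were 18.8% of the tested other membrane proteins and 23.5% of the tested V-ATPase genes, beside 22.2% of all tested genes. Called lower were 12.5% and 17.65% of them, in the same order, beside 21.7% of all tested genes.

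In the sorting machinery, 2 of 6 genes were called higher and the other 4 were not called, again beside 22.2% of all tested genes called higher. Igf2r, the large mannose 6-phosphate receptor and the most abundant of the list per kb, was at 111, 122, 125 and 121 CPM in controls and 208, 180.5, 186 and 203 CPM in Dnm2 wt/K562E mice. The genotypes were widely separate, with a log2 fold change of 0.70 (edgeR adjusted p = 1.54e-05). Sort1, the sortilin receptor, was called with a log2 fold change of 0.60 (edgeR adjusted p = 0.0111) although control 4 lay within the range of the mutants. M6pr, the small mannose 6-phosphate receptor, had 0.016 (edgeR adjusted p = 0.849). All 3 tested cystatins, inhibitors of cysteine cathepsins, were called higher (Cst7 was not tested). The abundant secreted inhibitor Cst3 went from 345, 335, 340.5 and 371 CPM to 618, 579.9, 526 and 559.6 CPM (log2 fold change 0.71), Cst6 had 1.16 and the intracellular inhibitor Cstb 0.96.

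Of Tfeb, Tfe3, Tfec, Mitf and the repressor Zkscan3, 2 were called lower by edgeR and 0 higher (0 also at an unadjusted p under 0.05, by the exact test of edgeR and by DESeq2). Beside this, 21.7% of all tested genes were called lower and 22.2% higher. Tfeb stood at 42.3, 40.1, 38.8 and 41.3 CPM in controls and 30.2, 35.6, 35.2 and 30.8 CPM in Dnm2 wt/K562E mice. The mutants lay below the controls, and the log2 fold change was -0.30 (standard error 0.073, edgeR adjusted p = 0.00641). Tfe3 had 19.0, 14.7, 15.9 and 18.1 CPM in controls, 18.8, 19.6, 19.5 and 18.9 CPM in Dnm2 wt/K562E mice and a log2 fold change of 0.18 (edgeR adjusted p = 0.12). Mitf had 18.9, 14.5, 15.8 and 16.2 CPM, 16.8, 16.9, 16.5 and 14.7 CPM and -0.0086 (edgeR adjusted p = 0.948). Zkscan3, known as a repressor of lysosomal genes from cell lines, was also called lower, with -0.53 (edgeR adjusted p = 0.000105), and the scarce Tfec had 0.87 with a standard error of 0.62. These are RNA levels, and the activity of Tfeb and its relatives, which is set largely by phosphorylation and nuclear entry, was not measured.

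**Figure D4:**
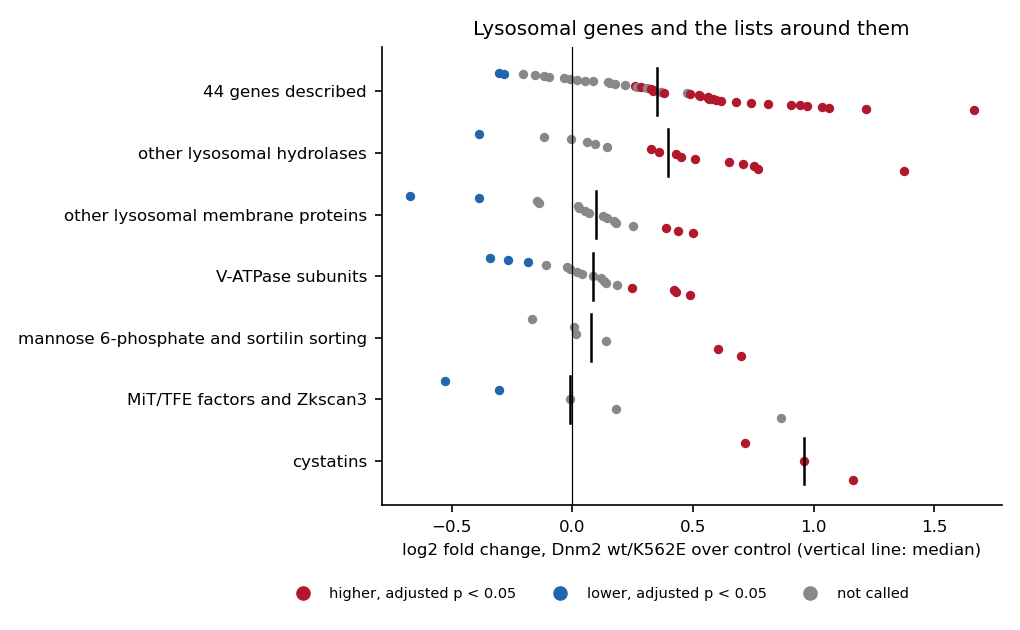
Log2 fold change, Dnm2 wt/K562E over control, of the 44 lysosomal genes and of the tested genes in 6 further lists. Each point is a gene, spread vertically for legibility, colour marks the call, and a vertical line marks the median of each list. The medians of the 44 genes (0.35) and of other hydrolases (0.39) lie right of those of other membrane proteins (0.10) and V-ATPase subunits (0.087).

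Promoter windows of 300 bases, from 250 before to 50 after the start site, were taken from RefSeq (GRCm38.p6) for 39 of the 44 genes. They show which of the genes hold the letters of the CLEAR element, searched on both strands. Its inner letters TCACGTGA were in a window of 4 of the 39 genes (10.3%), against 2.08% of 10788 tested genes with a window. A gene can have more than 1 window, and per window the share was 0.974% of all 32851 in the table. The longer element, with a G before and a C after these letters, was in 0 of the 39 genes, in 0.723% of tested genes and in 0.326% of all windows. The shares were higher for the core CACGTG, which both longer forms contain: it was in 13 of 39 genes (33.3%), against 11.5% of tested genes and 7.15% of all windows. The letters GAGGAAGT, a PU.1-type site of the ETS factor family, were in 4 of 39 genes (10.3%), namely Ctsc, Ctss, Gla and Gusb. They were in 3.67% of tested genes and 3.2% of all windows. A match of letters is a description and not evidence of binding.

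The stretches below show the inner CLEAR letters in the 4 genes that hold them and, for contrast, a core in the membrane protein Lamp1 and the reverse complement of the PU.1 letters in Ctss, the cathepsin that rose most. Each is 30 bases on the strand of the gene, 5′ to 3′, with the letters searched in capitals.
Ctsa (chr2:164833749-164833778, + strand): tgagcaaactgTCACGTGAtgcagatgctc
Ctsd (chr7:142387908-142387937, - strand): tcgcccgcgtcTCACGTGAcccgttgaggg
Gla (chrX:134601182-134601211, - strand): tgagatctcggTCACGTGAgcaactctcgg
Mcoln1 (chr8:3500462-3500491, + strand): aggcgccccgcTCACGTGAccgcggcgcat
Lamp1 (chr8:13159134-13159163, + strand): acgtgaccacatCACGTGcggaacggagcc
Ctss (chr3:95526773-95526802, + strand): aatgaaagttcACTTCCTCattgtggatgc

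The 4 genes with the inner CLEAR letters did not move together. Ctsd was called higher (0.33), while Ctsa (0.15), Gla (0.37) and Mcoln1 (-0.15) were not called. Their median log2 fold change was 0.24, and that of the 35 genes without these letters, of which 20 were called higher, was 0.47. For the PU.1 letters the medians were 0.52 in the 4 genes with them, of which 2 were called higher, and 0.31 in the 35 without, of which 19 were. Of the 13 genes with the core, 7 were called higher, and of the 26 without it 14 were. Lamp1 has 4 cores, centred at -58, -42, -25 and -12 from its start site, and was not called. The Ctss stretch spans the start site, with the letters centred 2 bases after it.

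Soleus holds more than muscle fibres, and markers of other cell types differed between the genotypes alongside the lysosomal genes. Of 8 muscle fibre markers 7 were called lower, beside 21.7% of all tested genes, and their summed CPM was 0.66 times the control mean. Acta1 was the most abundant per kb and none was at 0, so the labelled tissue carried its defining genes in every mouse. Of 13 macrophage markers 10 were called higher, beside 22.2% of all tested genes, and the sum was 2.08 times the control mean. The most abundant, Lyz2, was at 83.2, 83.4, 81.6 and 147 CPM in controls and 339, 292, 281 and 215 CPM in Dnm2 wt/K562E mice, and the lysosomal marker Cd68 at 6.11, 3.80, 4.46 and 8.24 CPM and 23.5, 17.7, 21.8 and 13.9 CPM. All 5 general leukocyte markers were called higher (sum 2.41 times the control mean, Tyrobp the most abundant per kb), with summed CPM of 32.6, 29.4, 26.4 and 49.8 in controls and 101, 85.2, 84.0 and 63.0 in Dnm2 wt/K562E mice. Whether the share of macrophages has a part in the levels of the lysosomal genes was not tested.

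Connective tissue markers moved the same way. All 6 fibroblast markers (summed CPM 2091, 1858, 2028 and 2826 in controls and 5151, 4856, 4479 and 3970 in Dnm2 wt/K562E mice, Dcn the most abundant per kb) and all 5 tendon markers (581, 294, 354 and 629.9 and 1209, 1071, 884 and 948, mainly Fmod) were called higher. All 5 endothelial markers were called lower (875, 862, 900.2 and 872 and 616, 669, 705 and 689, Cdh5 the most abundant). The counts of this paragraph stand beside 22.2% of all tested genes called higher and 21.7% lower. Of satellite cell markers, Chodl, the most abundant, was called higher and Pax7, Calcr and Myf5 lower, with sums of 62.6, 35.2, 58.4 and 52.6 and 128, 160.2, 158 and 132. Of 5 Schwann cell markers 1 was called lower (Mbp), with sums of 181, 199.7, 199 and 186 and 169, 153, 186 and 188. None of 5 mast cell markers (11.3, 18.9, 14.98 and 41.3 and 20.2, 28.3, 23.0 and 6.97, Mcpt4 the most abundant) and none of 4 adipocyte markers (65.1, 112, 29.3 and 164 and 96.3, 79.9, 50.03 and 71.2, Adipoq the most abundant) was called by edgeR, at an unadjusted p under 0.05 or by DESeq2, and both lists varied severalfold within the controls. The osteoclast list summed to 43.0, 57.5, 55.0 and 58.6 and 46.6, 42.3, 45.0 and 41.0, nearly all of it Nfatc1, which muscle also expresses. No neutrophil marker (0.506, 0.238, 0.269 and 0.265 and 2.06, 0.442, 0.501 and 1.27, S100a9 the most abundant) and no marker of T or B cells (1.37, 0.475, 0.538 and 1.21 and 0.407, 0.674, 0.930 and 0.162, Cd79a the most abundant) passed the filter, and Ly6g was at 0 in all 8 mice. DESeq2, run without that filter, called S100a8 higher and Cd79a lower. The part of these cell types in the lysosomal levels was not tested.

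**Figure D5:**
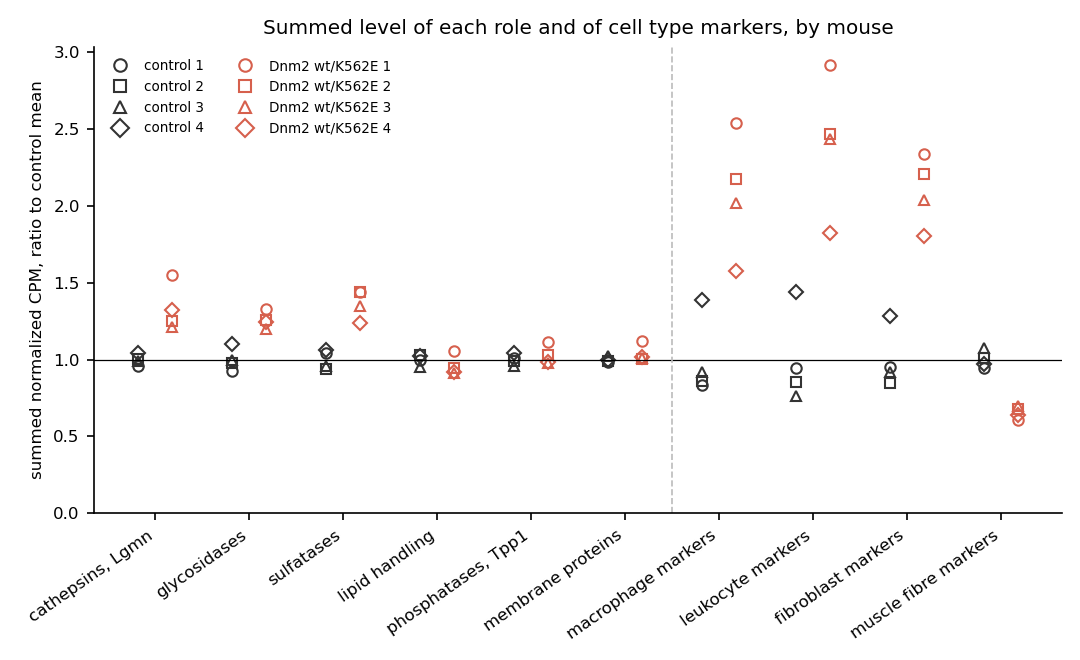
Summed normalized CPM of each lysosomal role (left of the dashed line) and of 4 marker lists (right), as a ratio to the control mean, in each mouse. Symbols give mice 1 to 4 of each genotype. The mean of the Dnm2 wt/K562E mice is 2.08 for macrophage, 2.41 for leukocyte, 2.10 for fibroblast and 0.66 for muscle fibre markers, and 1.33 for cathepsins, 1.26 for glycosidases, 1.37 for sulfatases and 0.96 for lipid-handling genes.

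Reads of some of these genes could also have come from, or been given to, other genes, because a read on 2 overlapping genes was counted for both and the use of strand was not stated. Exons of 11 of the 44 genes overlap another counted gene, and 16 genes either overlap so or share at least 10% of their 31-base stretches with other genes. The largest shared parts were 39.6% for Arsb, 33.2% for Ctsd and 28.2% for Ctsl, in each case mostly with a gene that was not analysed here. Ctsz, Glb1, Hexa, Sgsh, Arsa, Ppt1, Acp2, Lamp1, Cd63, Npc1, Ctsa, Ctsb and Idua are the other 13. Among the 28 genes without such doubt, 14 were called higher, 6 of them past the fold change threshold as well, and 2 lower. The shares over all tested genes were 22.2%, 12.9% and 21.7%, in this order.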

How the data were processed

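The authors deposited raw counts per gene for 8 soleus libraries (4 control, 4 Dnm2 wt/K562E), without normalization. Trimmomatic 0.33 was used for trimming, STAR 2.5.1b for alignment to GRCm38.p5 with Ensembl gene models, and featureCounts for counting. A read counted for every gene it overlapped, and only the primary alignment of a multi-mapping read was used, so genes with close copies can lose or share reads. Poly A enrichment is stated in the study's methods but a stranded total RNA kit in the labels, and the use of strand in counting is not given in the sources used here.

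Of 22880 gene IDs, 22647 were matched to GENCODE M21, of the same genome build, for symbols, positions and exon lengths. With edgeR 4.0.16 in R 4.3.3, filterByExpr (minimum count 10, minimum total 15) kept 14001 genes, which were tested by the quasi-likelihood F-test after TMM scaling, with Benjamini-Hochberg adjustment over all of them. Standard errors were derived from the F statistic and the log2 fold change. Mice were grouped by the genotype label. Mice of a genotype differed by more than sampling noise (chi-square per degree of freedom of at least 12.6 for every pair). The numbers 1 to 4 in titles and descriptions mark different animals and order the mutants differently, so no block was used. The fit was also run on simulated counts in which few genes were changed, as many raised as lowered. That simulation did not probe the difference in scaling between the genotypes.

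The 44 genes, roles and further lists were chosen with earlier results of these data known. Values in every mouse are given for, in each role, the 2 genes with the smallest p, the gene with the largest p and the gene with the highest level per kb, and for Ctss and Ctsk. For further lists, the 2 genes with the smallest p and the most abundant per kb are named. As alternatives, DESeq2 1.42.0 and the exact test of edgeR, scaling by library size alone or by median-ratio factors, no filter, at least 10 counts in every mouse, replicate blocks, leaving out genes with doubtful reads and leaving out each mouse were tried. Leaving out control 4 and Dnm2 wt/K562E mouse 1 together was chosen after seeing the data. Values of some single marker genes are not reported here, although the summed levels include them.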

Additional observations from a re-analysis of the deposited data

Results flagged for a closer look

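Within each genotype, the highest or lowest mouse was compared with the other 3 by its gap over the whole range, for 88 groups of 4 mice (44 genes, 2 genotypes). Chance alone marks about 1 group in 20 by this rule, and 6 were marked. In 5 of the 6 the mouse set apart was Dnm2 wt/K562E mouse 1. Ctss was at 46.1 CPM in that mouse and at 32.4 to 33.5 CPM in the other 3 mutants, Ctsb at 499.5 CPM against 399 to 413 CPM, and Asah1 at 65.3 CPM against 54.2 to 55.8 CPM. Arsa was at 18.7 CPM against 15.9 to 16.01 CPM, and Ctso, which was lower in the mutants, at 13.8 CPM against 12.5 to 12.7 CPM. These genes kept their calls without this mouse. In controls, Scarb2 was at 78.6 CPM in control 1 and at 57.1 to 59.3 CPM in the other 3.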

How the results depend on the processing

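Of the 44 genes, 24 kept their call and sign in all 17 alternatives tried for single genes, and 20 changed in at least 1. With library size alone, 37 genes were called higher, beside 40.05% of all tested genes, and 0 lower, beside 1504 of 14001. Of the 37 genes, 21 passed both thresholds, but no share of all tested genes past both was taken on that scale. The medians were 0.56 for the 44 genes, 0.64 for cathepsins, 0.58 for glycosidases and 0.30 for membrane proteins. The median of all genes on that scale was 0.22. On that scale 6 genes changed sign, Tpp1 to 0.18 (called higher, edgeR adjusted p = 0.0491) and, not called, Lamp1 to 0.094, Mcoln1 to 0.059, Npc1 to 0.12, Idua to 0.0082 and Acp5 to 0.19, while all 6 stayed below the median of all genes on that scale. Acp5 also turned to 0.12 and 0.11 with the blocks by title and description numbers, to 0.13 with control 4 and Dnm2 wt/K562E mouse 1 left out, and ranged from -0.30 to 0.20 with each mouse left out in turn. Over the same 8 fits Gaa ranged from -0.0022 to 0.090 and Ids from -0.017 to 0.054. None of these 3 was called in those fits. Leaving out each mouse in turn gave medians from 0.32 to 0.42 for the 44 genes and from 0.35 to 0.54 for cathepsins, the highest in both cases without control 4. Without the 16 genes with doubtful reads, 14 of 28 genes were called higher, 6 past both thresholds, against 25 and 13 of all 44. The shares over all tested genes were 22.2% and 12.9%. The median of membrane proteins without the doubtful genes was 0.18. With control 4 and Dnm2 wt/K562E mouse 1 left out, the median of membrane proteins was 0.010. The cause of these shifts was not tested. A replicate block by title numbers gave 26 genes called higher and 2 lower (median 0.35), beside 18.6% of all tested genes higher, and one by description numbers 25 and 2, beside 20.8%. Deviations from the group means correlated, on average over same-numbered mice, at -0.11 by titles and -0.03 by descriptions. Single pairs ran from -0.213 to 0.009 by titles and from -0.167 to 0.178 by descriptions. So few pairs cannot show whether same-numbered mice shared a litter or a batch. Manba, not called in the main comparison (edgeR adjusted p = 0.0524), was called by the exact test of edgeR and in 4 other alternatives. Manba without control 2 was at 0.39 (edgeR adjusted p = 0.0242). Gla had 1012 counts over the 8 mice, the fewest of the 44 genes.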
